A study of Mus musculus with 9 samples.

Results

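The clustered histone genes are the genes that encode the bulk histone proteins and sit side by side in 4 groups in the mouse genome. They were chosen by name: every gene identifier in the deposited count table whose GENCODE M21 symbol begins with Hist1h, Hist2h, Hist3h or Hist4h. The table held 67 of the 70 such genes, among 35275 genes in all (Hist1h2bh, Hist2h2bb and Hist1h2bm were not analysed here). The 67 were 6 H1, 20 H2A, 16 H2B, 12 H3 and 13 H4 genes. RNA was sequenced from 9 mammary gland tumors of Brca1Co/Co;MMTV-Cre;p53+/- mice, which lose Brca1 where the MMTV promoter, active mainly in mammary epithelium, drives the Cre recombinase, and which carry 1 p53 allele. This genotype was shared by all groups, the saline controls included. 3 tumors came from mice given saline, 3 from mice given Talazoparib (i.v. TLZ), and 3 from mice given liposomal Nano-Talazoparib (NanoTLZ), both injected i.v. at 0.33 mg/kg, 3 doses a week and 5 doses in all. Treatment began once a tumor had formed, and the age of each mouse was not given in the sources used here. The comparisons addressed how each form of the drug, an inhibitor of PARP enzymes that act in DNA repair, changed gene expression in the tumor, and whether the forms differed.

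Histones H2A, H2B, H3 and H4 form the protein core around which DNA is wrapped, and H1 binds the DNA between those cores. Most clustered genes are replication-dependent: they are transcribed mainly in S phase, and their mRNAs end in a stem-loop instead of a poly(A) tail. The stem-loop is bound by SLBP, the protein that carries the mRNA through processing and translation, and the mRNA is destroyed when DNA synthesis stops. Several of the clustered genes are also known to make polyadenylated transcripts outside S phase, Hist1h1c and Hist1h2bc among them. The libraries were described only as made from total RNA by standard Illumina protocols, so whether RNA without a poly(A) tail was retained is not known, and a level below is that of whichever transcripts were captured.

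The stem-loop is shown because it is the feature that sets these mRNAs apart and because its letters can be read for each gene. In the GRCm38 genome, the 16-base pattern of the histone stem-loop (GG at its 5′ end, CC at its 3′ end and a T-rich loop between them) was searched on the sense strand in the first 100 annotated bases after the stop codon. Of the 50 members with at least 16 annotated bases there, 44 held it (88%), against 91 of 20981 coding genes of M21 (0.434%). The 44 carried 8 forms, of which the 5 most common follow in DNA letters, 5′ to 3′, with the paired stem in capitals and the loop in lower case.
Hist1h1c: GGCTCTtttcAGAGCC
Hist1h4h: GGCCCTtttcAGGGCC
Hist1h3c: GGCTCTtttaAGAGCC
Hist1h4i: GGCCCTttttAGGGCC
Hist1h4j: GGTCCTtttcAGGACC
The form of Hist1h1c was found in 24 members of the H1, H2A, H2B and H3 classes, and that of Hist1h4h in 7 members, all H4. The form of Hist1h3c was found in 6 members, and those of Hist1h4i and Hist1h4j in 2 H4 members each. In Hist1h1c the letters began 25 bases after the stop codon, in Hist1h4i 31 bases and in Hist1h4h 32 bases. Hist1h2bc, which has 2 exons and 742 annotated bases after the stop codon, held no such letters in the window, and neither did Hist2h2be.

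The 54 Hist1 members lay on chromosome 13, 9 Hist2 members on chromosome 3, 3 Hist3 members on chromosome 11 and Hist4h4 on chromosome 6. RefSeq gave a promoter (GRCm38.p6, 250 bases before to 50 after the start) for 59 members, 60 promoters in all. Read on both strands, CCAAT was in 85% of them and in 37.4% of all 32851 promoters, TATAAA in 58.3% and 13.6%, and the octamer ATTTGCAT in 20% and 1.74%. CCAAT was in all promoters of the H1, H2A, H2B and H3 classes and in 25% of those of H4, whereas the octamer was in 7 of 18 H2A and 5 of 14 H2B promoters and in no promoter of the other classes. The sequences of 2 promoters are shown, for the most abundant member (Hist1h1c) and for the interval shared by Hist1h2ac and Hist1h2bc, a pair that is transcribed in opposite directions. They give the 250 bases before the start of Hist1h1c (chr13:23738557-23738806, plus strand) and of Hist1h2ac (chr13:23683960-23684209, minus strand), with these motifs, in either orientation, in capitals.
Hist1h1c: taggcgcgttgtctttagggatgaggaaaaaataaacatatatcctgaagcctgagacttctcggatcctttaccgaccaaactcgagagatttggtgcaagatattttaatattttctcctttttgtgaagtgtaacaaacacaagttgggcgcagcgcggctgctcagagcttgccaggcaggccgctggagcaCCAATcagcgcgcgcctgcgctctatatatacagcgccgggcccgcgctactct
Hist1h2ac: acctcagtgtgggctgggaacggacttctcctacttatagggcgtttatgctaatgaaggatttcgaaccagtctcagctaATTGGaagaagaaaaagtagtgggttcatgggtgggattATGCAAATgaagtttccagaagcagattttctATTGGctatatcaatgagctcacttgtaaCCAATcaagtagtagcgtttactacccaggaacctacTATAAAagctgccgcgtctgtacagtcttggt
The Hist1h1c stretch held 1 CCAAT. The stretch between Hist1h2ac and Hist1h2bc held CCAAT once in the direction of Hist1h2ac and 2 times in that of Hist1h2bc, with 1 octamer and 1 TATAAA.

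The tumors had 17538380 to 21194980 assigned counts each, and 15821 genes passed the filter on low counts. Each group had 1 tumor with far more counts of Gm42418, a noncoding gene known to overlap ribosomal RNA sequence: 11600 CPM in saline tumor 1, 13320 in i.v. TLZ tumor 1 and 4333 in NanoTLZ tumor 1, against 738 to 918 in the other 6. CPM are counts scaled to library size after TMM, edgeR's correction for library composition. Each of those 3 tumors also had the highest summed histone level of its group. All 8 epithelial markers were detected in every tumor, with sums of 3742 to 8175 CPM. The summed level of 8 muscle markers was 33.4 to 738 CPM in saline, highest in tumor 3, and 6.73 to 35.7 in the treated tumors, with 8 of 8 markers lower in each treatment and Acta1, Ckm or Myh4 at 0 counts in 1 tumor or more. Of 8 myeloid markers, none at 0 in any tumor, the sum was 501 to 2286 CPM in saline, 1409 to 2708 in i.v. TLZ and 3094 to 4199 in NanoTLZ. The sum of 7 T and B cell markers was 4.18 to 11.9, 4.1 to 21.8 and 14.8 to 38.5 CPM, with Ms4a1 at 0 in i.v. TLZ tumor 3. That of 8 stroma and vessel markers was 1468 to 2118, 1000 to 6061 and 1740 to 3165 CPM. The part of these differences in the histone results was not tested, except that the counts below are also given without the tumors named. In bulk tumors, fewer cells of a type and less RNA per cell cannot be told apart.

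A minority of the members made up most of the histone signal. Hist1h1c (ENSMUSG00000036181, chr13:23738808-23740367), a linker histone gene, and Hist1h2bc (ENSMUSG00000018102, chr13:23684199-23692908) together gave 60.7% of the summed CPM of the 67. Levels of different genes were compared per kb of annotated exons, a length that includes the bases annotated after the stop codon. The highest mean levels over the 9 tumors were 73.3 CPM per kb for Hist1h1c and 53.5 for Hist1h2bc. Hist1h2al followed with 42.5, Hist1h4h (ENSMUSG00000060981, chr13:23531050-23531519) with 28.0 and Hist1h4i (ENSMUSG00000060639, chr13:22040636-22041362) with 23.0. Hist1h2al is annotated as a processed pseudogene and lies far from the rest of the cluster. The median of the 40 members that passed the filter was 1.92 CPM per kb, and by class it ran from 1.36 in H2B to 4.05 in H4. The other 27 members did not pass: 8 had 0 counts in every tumor, where a floor of 3 counts corresponds to 0.138 to 0.172 CPM, and none of the other 19 had over 20 counts in any tumor. The testis genes Hist1h2aa and Hist1h2ba were at 0, and Hist1h1t, the testis linker histone, had 15 counts over all tumors.

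**Figure D1:**
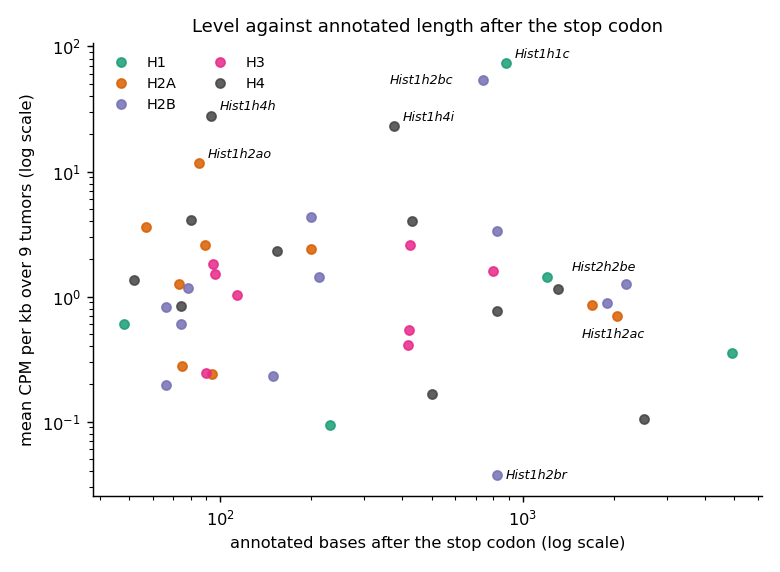
Mean CPM per kb of exon over 9 tumors (log scale) against the annotated bases after the stop codon (log scale) for the 45 members with such an annotation and at least 1 count, 1 point a gene, colored by class. Hist1h1c at 73.3 and Hist1h2bc at 53.5 CPM per kb stand at the top with 880 and 742 annotated bases, Hist1h4h at 28.0 has 93 bases, and the longest annotations belong to genes near or under 1 CPM per kb. CPM per kb is divided by an exon length that includes these bases, so the axes are not independent.

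Members with long and short annotated sequence after the stop codon had similar median levels. The 23 members with over 200 annotated bases there had a median of 0.886 CPM per kb, and the other 44 had 0.837. Many members have near-identical copies: the median share of a member's 50-base windows found elsewhere in the annotated transcripts was 55%, and how reads that map to several copies were counted was not given in the sources used here. The 4 members for which every window was shared (Hist2h2aa1, Hist2h2aa2, Hist2h3c1 and Hist2h3b) all had 0 counts, as had 4 others with fewer shared windows, whereas Hist1h2bq, with 97.3% shared, had 1158 counts. The closest match of each of those 4 was another annotated gene that overlaps it at the same place, so shared windows are not always separate copies. Levels of members with such copies are uncertain, and Hist1h2be also overlaps Hist1h1e in the annotation, where the counting was not stated to use strand. Every H2A member overlaps another annotated gene, as do only Hist1h2be, Hist1h1e, Hist1h4b, Hist2h3c1 and Hist2h3b in the other classes. The effect of these overlaps on the counts was not tested.

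Summed over the 67 genes, clustered histone RNA was higher in every treated tumor than in any saline tumor. The saline tumors had 212, 113 and 116 CPM in tumors 1 to 3, the i.v. TLZ tumors 508, 279 and 380, and the NanoTLZ tumors 357, 301 and 349. The means were 147 ± 56.6 (SD, n = 3), 389 ± 115 and 335 ± 30.3 CPM, which put i.v. TLZ at 2.64 and NanoTLZ at 2.28 times saline. Without Hist1h1c and Hist1h2bc, the other 65 genes summed to 91.3, 42.8 and 62.4 CPM in saline, 168, 120 and 135 in i.v. TLZ, and 143, 111 and 154 in NanoTLZ, again without overlap. Without the tumor of highest Gm42418 in each group, the mean sums were 114 CPM in saline, 329 with i.v. TLZ and 325 with NanoTLZ.

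The classes did not move alike. The H4 sum was 14.4 ± 7.94 CPM (SD, n = 3) in saline, 52.7 ± 11.1 with i.v. TLZ and 63.3 ± 22.5 with NanoTLZ, and the H2B sum was 30.7 ± 12.5, 104 ± 21.4 and 109 ± 19.1 CPM. H3 summed to 4.09 ± 2.31, 12.4 ± 5.70 and 10.5 ± 2.44 CPM. In these 3 classes no treated tumor overlapped with a saline tumor. The H1 sum, 66.5 ± 32.5 CPM in saline, 178 ± 76.4 with i.v. TLZ and 122 ± 16.8 with NanoTLZ, overlapped between saline tumor 1 (104) and i.v. TLZ tumor 2 (96.6) and NanoTLZ tumor 3 (103). The H2A sum was 31.4 ± 10.1, 41.8 ± 10.5 and 30.4 ± 5.29 CPM, with all groups overlapping. The pseudogene Hist1h2al, with 67.6% of its windows shared, gave 7.16, 22.0 and 14.1 CPM of these means. The rest of the H2A sum had a higher mean in saline than in either treatment, but its groups overlapped. Of all tumors, saline tumor 3 had the highest value of this rest and saline tumor 2 the lowest, so the higher saline mean rested on tumor 3. H2A thus made up 15.9% to 34.6% of the histone CPM of a saline tumor, highest in tumor 3, and 7.35% to 14.6% of that of a treated tumor, while H4 made up 8.32% to 11.1% and 11.7% to 24%.

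**Figure D2:**
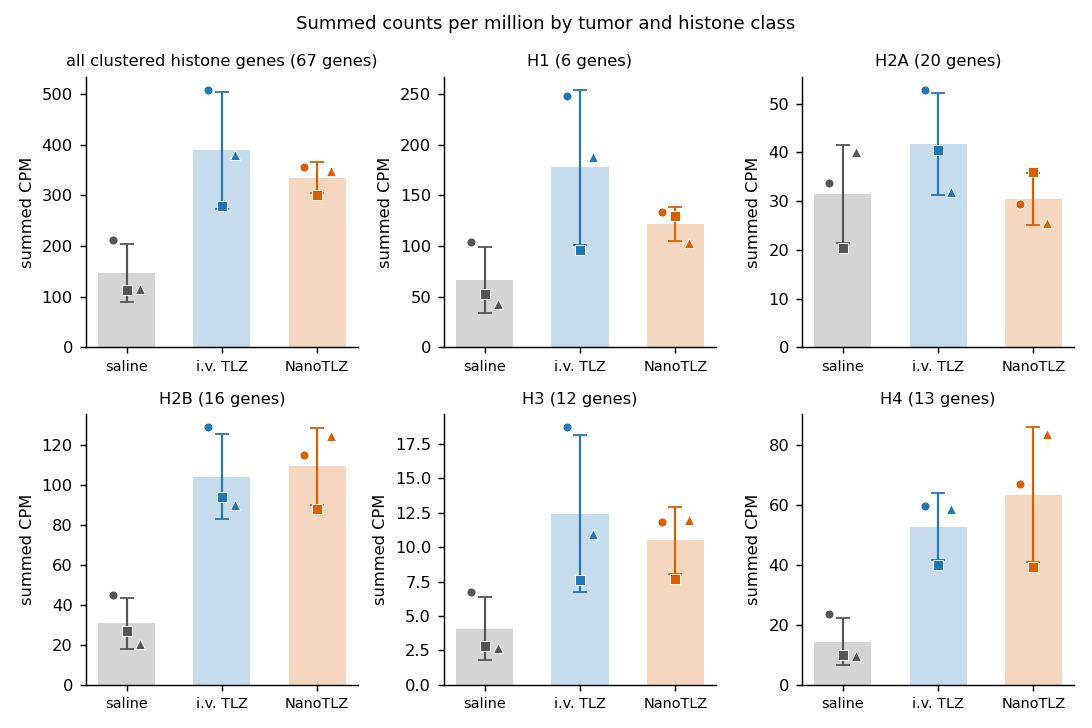
Summed CPM in each tumor for all 67 clustered histone genes and for each class, by group. Bars are means and error bars SD of 3 tumors, points are tumors (circle, square and triangle for tumors 1, 2 and 3). All 6 treated tumors lie above the saline tumors in the total (lowest treated 279, highest saline 212) and in H2B, H3 and H4, and the groups overlap in H1 and H2A.

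Gene by gene, most tested members were higher after treatment, but in edgeR none passed an adjusted p of 0.05 over all 15821 genes. Against saline, 36 of the 40 were higher with i.v. TLZ, with a median log2 fold change of 1.43, and 35 of 40 with NanoTLZ, with a median of 1.13. The medians of all tested genes were -0.034 and -0.085, and 47.6% and 43.9% of all genes were higher. Some members, such as Hist3h2ba, Hist1h3b, Hist1h4m and Hist1h2bb, passed the filter on low counts only through treated tumors, which fixed their direction. They are part of the counts of tested members given here and below. With no filter, 49 of 59 members were higher with i.v. TLZ (median 1.19) and 46 of 59 with NanoTLZ (median 0.921). With 0 members called in either comparison, the background was also near 0: edgeR called 0% of all genes with i.v. TLZ and 0.00632% with NanoTLZ. At an unadjusted p under 0.05, 17 members were higher and 1 lower with i.v. TLZ, where 4.91% of all genes were higher and 5.47% lower. With NanoTLZ, 11 were higher and 2 lower, where 3.51% of all genes were higher and 5.49% lower. At this p with no filter, 18 of 59 were higher and 1 lower with i.v. TLZ, where 1041 and 1167 of 25483 genes were. With NanoTLZ they were 14 and 2, where 811 and 1185 genes were. Of 17 members with at least 10 counts in every tumor, 12 were higher and 0 lower with i.v. TLZ, and 7 and 1 with NanoTLZ. Of the 13032 genes with as many counts, 631 and 744 were, then 451 and 695. The tumors of the groups did not overlap for 16 members higher and 1 lower in each comparison, against 5.99% higher and 5.2% lower of all genes with i.v. TLZ and 7.82% and 8.13% with NanoTLZ. Hist3h2ba and Hist1h3b, whose direction the filter fixed, are among the 16 in each comparison. These comparisons share the saline tumors, so their likeness is not independent.

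Set against saline as the mean of both treated groups, 35 of 40 members were higher, with a median log2 fold change of 1.26 against -0.055 for all genes, of which 46.0% were higher. With no filter on low counts, 47 of 59 members were higher, with a median of 1.055. At an unadjusted p under 0.05, 17 of the 40 were higher and 2 lower, where 4.80% of all genes were higher and 8.29% lower. With no filter, 17 of 59 were higher and 3 lower at that p, where 987 and 1757 of 25483 genes were. edgeR called 0 members and 0.019% of all genes after adjustment, with 0.0998 as the lowest adjusted p of a member. All 6 treated tumors lay above all 3 saline tumors for 12 members and below them for Hist1h2ap, against 2.81% and 2.66% of all genes. DESeq2, the tool named by the study, was run on 59 members and 25483 genes in all. In this comparison it called 9 members, all higher, and 0.498% of the 25483 genes higher. The 9 were Hist1h2bc, Hist1h4h, Hist1h4i, Hist1h4k, Hist3h2ba, Hist1h3b, Hist1h3d, Hist1h2ad and Hist2h3c2. It called 6 members higher with i.v. TLZ (0.392% of the 25483 genes) and 4 with NanoTLZ (0.220%), and none lower. These shares understate the background, because 7782 of the genes for both, 7782 with i.v. TLZ and 9747 with NanoTLZ had no adjusted p. Saline tumor 1 decided the sizes most: without it the edgeR medians were 2.23 with i.v. TLZ, 2.05 with NanoTLZ and 2.25 for both, and the members higher at an unadjusted p under 0.05 were 26 (4.53% of all genes), 20 (3.45%) and 23 (4.33%). Without the tumor of highest Gm42418 in each group, 19 of 37 tested members were higher at an unadjusted p under 0.05 with i.v. TLZ (2.71% of all genes), 15 with NanoTLZ (1.76%) and 19 for both (2.25%), with medians of 2.12, 1.75 and 1.92. Without saline tumor 3, the highest in muscle genes, 16 of 41 tested members were higher with i.v. TLZ (5.35%), 10 with NanoTLZ (3.39%) and 14 for both (4.4%), and no member was lower in any of these comparisons, where 4.19%, 3.26% and 4.87% of all genes were lower.

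**Figure D3:**
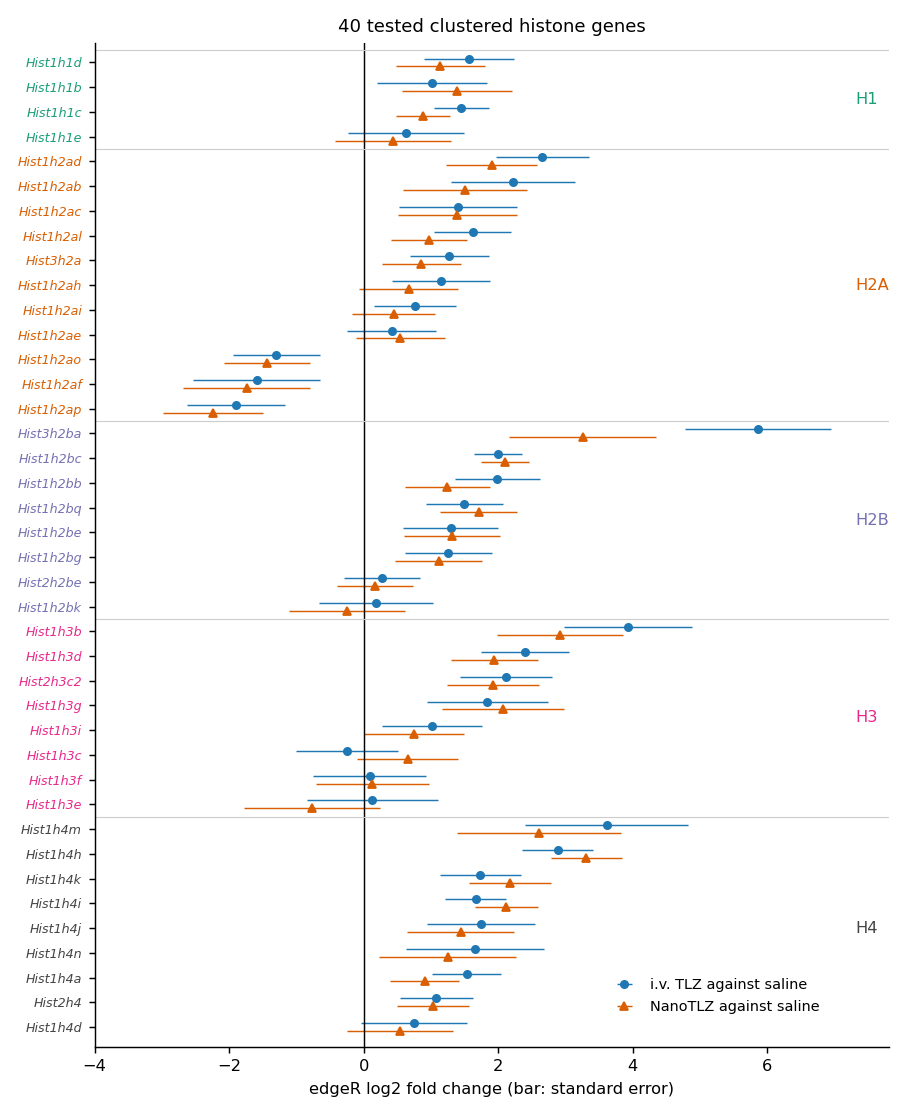
edgeR log2 fold changes against saline of the 40 tested clustered histone genes, grouped by class, for i.v. TLZ (circles) and NanoTLZ (triangles); bars are standard errors. Nearly all points lie to the right of 0, with medians of 1.43 and 1.13, and Hist1h2ao, Hist1h2af and Hist1h2ap lie to the left in both treatments.

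Among the H2B genes, Hist1h2bc was the most abundant and had the smallest p of its class. It had 28.4, 19.0 and 12.7 CPM in saline tumors 1 to 3, 103, 66.8 and 69.0 in i.v. TLZ tumors, and 91.6, 65.4 and 101 in NanoTLZ tumors. All treated tumors were thus well above the saline range. The edgeR log2 fold change was 1.99 ± 0.357 (SE) with i.v. TLZ and 2.10 ± 0.358 with NanoTLZ, with adjusted p of 0.251 and 0.377. DESeq2 gave adjusted p of 0.00109 and 3.93e-04 for the same comparisons. Hist1h2bq, which shares 97.3% of its 50-base windows with other genes, chiefly Hist1h2br, had 5.09, 2.43 and 0.963 CPM in saline, 9.89, 7.71 and 6.28 in i.v. TLZ, and 7.08, 10.6 and 10.1 in NanoTLZ. Its groups did not overlap either, with a log2 fold change for both treatments of 1.60 ± 0.521 (SE) and an adjusted p of 0.289 in edgeR. Hist2h2be, the Hist2 gene known for a polyadenylated transcript, had 2.12 to 4.13 CPM in saline, 1.52 to 5.80 in i.v. TLZ and 2.28 to 4.14 in NanoTLZ. Its groups overlapped throughout, and its log2 fold change for both was 0.22 ± 0.492 (SE). Hist1h2be, known for a polyadenylated transcript as well, had 0.459 to 4.29 CPM in saline and 3.83 to 6.84 in the treated tumors, and Hist1h2bk, with 0.477 to 0.688 and 0.0546 to 0.920 CPM, showed no direction that held across settings.

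Hist3h2ba, the H2B gene of the Hist3 cluster, was almost silent in saline. It had 0, 1 and 1 reads in the saline tumors (2 in all), 126 in the i.v. TLZ tumors and 21 in the NanoTLZ tumors. In CPM, i.v. TLZ tumors had 0.533, 4.54 and 1.73, and NanoTLZ tumors 0.193, 0.6 and 0.310. With so few saline counts the ratio to saline was 66.2 (95% exact counting interval 17.9 to 552) with i.v. TLZ and 10.8 (2.65 to 95.3) with NanoTLZ, and these intervals cover counting error only.

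All 9 tested H4 genes were higher in both treatments, and 6 of them with i.v. TLZ and 5 with NanoTLZ lay above saline without overlap, where 5.99% and 7.82% of all genes did. Hist1h4m, 1 of the 9 and of the 6, passed the filter only through treated tumors, which fixed its direction. The H4 genes that did not pass are not in these counts. Hist1h4h had 3.49, 1.38 and 1.61 CPM in saline tumors 1 to 3, 21.2, 9.24 and 17.3 in i.v. TLZ, and 20.8, 13.6 and 29.8 in NanoTLZ. The lowest treated tumor was far above the highest saline tumor. Its log2 fold change in edgeR was 2.88 ± 0.524 (SE) with i.v. TLZ and 3.31 ± 0.533 with NanoTLZ, with adjusted p of 0.251 and 0.377, and 3.10 for both with an adjusted p of 0.0998. In DESeq2 its adjusted p was 7.52e-05 with i.v. TLZ and 9.49e-07 with NanoTLZ. Hist1h4i had 9.44, 4.77 and 3.49 CPM in saline, 20.2, 14.7 and 21.1 in i.v. TLZ, and 30.4, 15.0 and 31.6 in NanoTLZ, and its log2 fold change was 1.66 ± 0.456 (SE) and 2.12 ± 0.462. Hist1h4k had 1.89, 0.620 and 0.918 CPM in saline, 1.99, 3.72 and 5.68 in i.v. TLZ, and 3.71, 4.53 and 7.24 in NanoTLZ. In i.v. TLZ tumor 1 it was barely above saline tumor 1, and 71.5% of its windows are shared with other genes. The remaining H4 genes tested ranged from a log2 fold change for both of 0.64 (Hist1h4d) to 3.11 (Hist1h4m, with 0, 0 and 0.229 CPM in saline). Hist4h4, the gene of the Hist4 cluster, had 52 counts in all and was not tested.

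Hist1h1c made up most of the H1 sum. It had 92.6, 51.2 and 40.8 CPM in saline tumors 1 to 3, 237, 91.7 and 175 in i.v. TLZ, and 122, 124 and 93.5 in NanoTLZ. Saline tumor 1 and i.v. TLZ tumor 2 overlapped, whereas the NanoTLZ tumors lay just above saline. The log2 fold change was 1.45 ± 0.410 (SE) with i.v. TLZ and 0.88 ± 0.405 with NanoTLZ, with adjusted p of 0.417 and 0.562 in edgeR, and DESeq2 called it in no comparison. Hist1h1e had 5.15, 0.620 and 0.688 CPM in saline, 1.53 to 5.33 in i.v. TLZ and 1.47 to 4.24 in NanoTLZ, and Hist1h1d had 0.620 to 2.46 CPM in saline and 1.70 to 5.36 in the treated tumors. Both overlapped between groups.

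**Figure D4:**
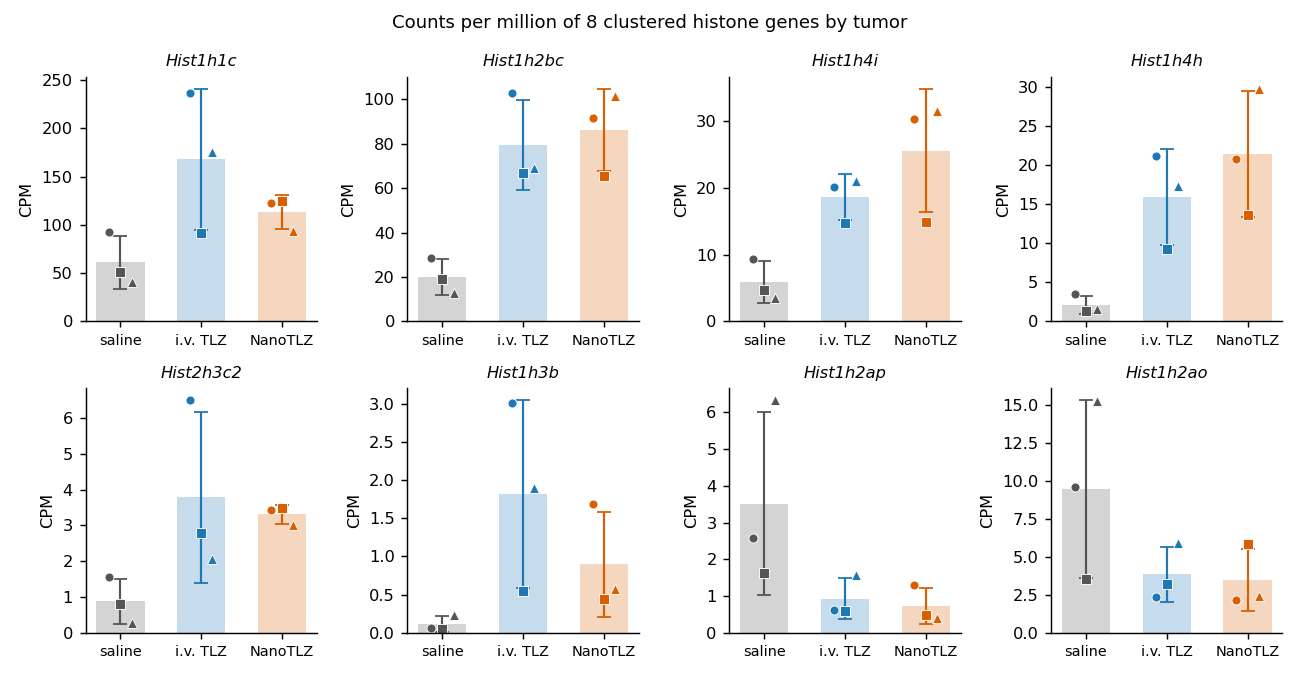
CPM of 8 clustered histone genes in each tumor by group; bars are means and error bars SD of 3 tumors, points are tumors (circle, square and triangle for tumors 1, 2 and 3). Each panel has its own axis, starting at 0. Hist1h2bc, Hist1h4i, Hist1h4h, Hist2h3c2 and Hist1h3b have every treated tumor above saline, Hist1h2ap has every treated tumor below saline, and Hist1h1c and Hist1h2ao overlap.

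The H3 genes were less abundant, and the tested ones differed in the size of their change. For both treatments, 7 of the 8 had a log2 fold change above 0, and Hist1h3e was at -0.32 ± 0.848 (SE). Hist2h3c2 had 1.55, 0.810 and 0.275 CPM in saline, 6.50, 2.79 and 2.06 in i.v. TLZ, and 3.42, 3.49 and 3.0 in NanoTLZ, and Hist1h3d had 0.916, 0.620 and 0.229, then 4.46, 1.59 and 3.30, then 1.93, 1.69 and 3.16. Neither overlapped with saline, and their log2 fold changes for both treatments were 2.01 ± 0.631 (SE) and 2.17 ± 0.602, with adjusted p of 0.284 and 0.282 in edgeR. Hist1h3b had 0.0572, 0.0477 and 0.229 CPM in saline, 3.01, 0.547 and 1.89 in i.v. TLZ, and 1.69, 0.437 and 0.569 in NanoTLZ, with no overlap and a log2 fold change for both of 3.42 ± 0.885 (SE). Hist1h3g had 0.0477 to 0.629 CPM in saline and 0.437 to 2.33 in the treated tumors. Hist1h3e, in contrast, had 0.0477 to 1.2 CPM in saline and 0.164 to 0.873 in the treated tumors, and its log2 fold change was 0.13 ± 0.975 (SE) with i.v. TLZ and -0.76 ± 1.01 with NanoTLZ. Hist1h3c had log2 fold changes of -0.25 ± 0.761 (SE) and 0.65 ± 0.747, and Hist1h3f of 0.086 ± 0.843 and 0.13 ± 0.841, and both overlapped between groups.

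H2A was the only class with members at an unadjusted p under 0.05 in the lower direction in the comparison of both treatments with saline. Hist1h2ap had 2.58, 1.62 and 6.33 CPM in saline tumors 1 to 3, 0.630, 0.601 and 1.57 in i.v. TLZ, and 1.30, 0.491 and 0.414 in NanoTLZ. Every treated tumor was below every saline tumor, by a narrow margin for saline tumor 2 and i.v. TLZ tumor 3. The log2 fold change for both was -2.07 ± 0.589 (SE), with an adjusted p of 0.284 in edgeR. Hist1h2ao had 9.56, 3.53 and 15.2 CPM in saline, 2.38, 3.23 and 5.90 in i.v. TLZ, and 2.17, 5.84 and 2.43 in NanoTLZ, and Hist1h2af had 2.80, 1.95 and 10.6, then 1.36, 0.656 and 3.08, then 2.36, 0.218 and 2.02. Both overlapped, and all 3 genes were highest in saline tumor 3. Without that tumor no member was lower at an unadjusted p under 0.05, and the log2 fold changes for both treatments were -1.31 for Hist1h2ap, -0.82 for Hist1h2ao and -0.54 for Hist1h2af, in place of -2.07, -1.37 and -1.67. These 3 genes share 93.1% to 94.0% of their 50-base windows with other annotated genes, and Hist1h2ap and Hist1h2ao are each other's closest match, so their separate levels are uncertain. The other H2A genes tested had positive log2 fold changes: Hist1h2al had 9.04, 9.10 and 3.35 CPM in saline, 31.4, 26.7 and 7.95 in i.v. TLZ, and 10.8, 19.9 and 11.5 in NanoTLZ. Hist3h2a, an H2A gene known for a polyadenylated transcript, had 0.459 to 1.60 CPM in saline and 1.14 to 3.14 in the treated tumors.

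Many H2A and H2B genes stand head to head. The annotation gave 13 such pairs among the members, with starts 172 to 305 bases apart. Of the 12 pairs with counts in both partners, the H2A gene was the higher per kb in 9 and the H2B gene in 3. Several of the 9 rest on few counts, down to 6 for an H2B pseudogene of the Hist3 cluster. In the pair of Hist1h2ao and Hist1h2bq, 1 of the 9, the H2B gene had more counts (1158 against 989) but a longer annotated exon length. Hist1h2ap had 3.58 CPM per kb and its partner Hist1h2br 0.0371, an H2B to H2A ratio of 0.0104, with 314 and 15 counts. Hist1h2br was not tested and shares 88.7% of its windows with other genes, chiefly Hist1h2bq, which had 1158 counts. This ratio is therefore uncertain. Hist1h2bc had 53.5 CPM per kb and its partner Hist1h2ac 0.694, a ratio of 77.2, with 10845 and 302 counts. The interval printed above holds the start of Hist1h2bc and lies before that of Hist1h2ac. Hist2h2be had 5.30 times the level of Hist2h2ac. All these ratios depend on annotated exon length. Hist1h2ac had 1.89, 0.143 and 0.459 CPM in saline, 3.01, 0.875 and 2.65 in i.v. TLZ, and 3.51, 1.2 and 1.76 in NanoTLZ, and its log2 fold change for both treatments was 1.39 ± 0.801 (SE) beside 2.05 ± 0.331 for Hist1h2bc. In the pair of Hist1h2ao and Hist1h2bq the log2 fold changes had opposite signs, -1.37 and 1.60, and both genes have near-identical copies elsewhere.

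The members were also grouped by the features read from their sequence. The 30 tested members with the stem-loop letters had a median log2 fold change of 1.33 for both treatments, and the other 10, without these letters or without enough annotated sequence to search, had 1.05. The median was 1.33 for the 18 tested members with over 200 annotated bases after the stop codon and 1.21 for the other 22. The 22 with under 50% of their windows shared had a median of 1.21, and all 22 were higher, whereas the other 18 had a median of 1.37 with 5 lower. Both sets hold members whose direction the filter fixed, such as Hist3h2ba and Hist1h2bb among the 22 and Hist1h3b among the 18. Some of the 22 were near 0, such as Hist2h2be at 0.22 ± 0.492 (SE). Of the 6 members known for polyadenylated transcripts, 5 were tested, and all 5 were higher, with a median of 1.17. A list of 12 abundant RNAs without a poly(A) tail, meant to show how far such RNA was captured, matched no gene of the table.

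No member was called between the forms of the drug. Of the 40 members, 29 were lower and 11 higher with NanoTLZ than with i.v. TLZ, with a median log2 difference of -0.24 against -0.036 for all genes, of which 54.4% were lower. edgeR called 0% of all genes, DESeq2 called no member either, and at an unadjusted p under 0.05 Hist3h2ba alone was lower (1.23% of all genes) and no member higher (0.449%). Its log2 difference was -2.61 ± 0.860 (SE), with an adjusted p of 0.9999 in edgeR, and it was highest in i.v. TLZ tumor 2. Hist1h1c was lower with NanoTLZ by a log2 difference of -0.57 ± 0.403 (SE), and Hist1h2bb, an H2B gene with 73 counts in all, by -0.74 ± 0.587. For Hist1h2bc the difference was 0.12 ± 0.344 (SE) and for Hist1h4h 0.43 ± 0.484, both within their SE of 0.

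Genes of S phase, the period in which clustered histone genes are mainly transcribed, were mostly lower after treatment. Of 24 S phase genes, 23 were lower in each treatment, with a median log2 fold change of -0.99 with i.v. TLZ and -0.82 with NanoTLZ. At an unadjusted p under 0.05, 17 and 8 of them were lower and 0 higher, beside the 5.47% and 5.49% of all genes lower, and edgeR called none at an adjusted p under 0.05, whereas DESeq2 called Cdc6 lower with i.v. TLZ (adjusted p 0.0389). The counts depended on single tumors and ran from 4 to 18 with i.v. TLZ and from 0 to 13 with NanoTLZ when 1 tumor was left out. Without saline tumor 3 they were 4 and 0 (4.19% and 3.26% of all genes lower) and the medians -0.69 and -0.50. Without saline tumor 1 they were 11 and 2 (5.83% and 6.5% of all genes lower), and without the tumor of highest Gm42418 in each group 3 and 2 (2.6% and 2.95%). Mcm2, a subunit of the replicative helicase, had a mean of 117 CPM in saline, 48.2 with i.v. TLZ and 61.1 with NanoTLZ, with every treated tumor below saline, and its log2 fold change for both was -1.11, or -0.68 without saline tumor 3. Rrm2, a subunit of ribonucleotide reductase, had 73.0, 28.0 and 39.8, and Cdc6, which loads that helicase, 28.1, 10.4 and 17.6. The summed CPM of the 24 was 1839, 1150 and 2311 in saline tumors 1 to 3, 705, 855 and 1310 in i.v. TLZ, and 1185, 1008 and 1029 in NanoTLZ, so that these sums overlapped while the histone sums did not. Taken as a percentage of the S phase sum, the clustered histone sum was 11.6%, 9.83% and 5.01% in saline, 72.0%, 32.6% and 29.0% in i.v. TLZ, and 30.1%, 29.8% and 33.9% in NanoTLZ.

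**Figure D5:**
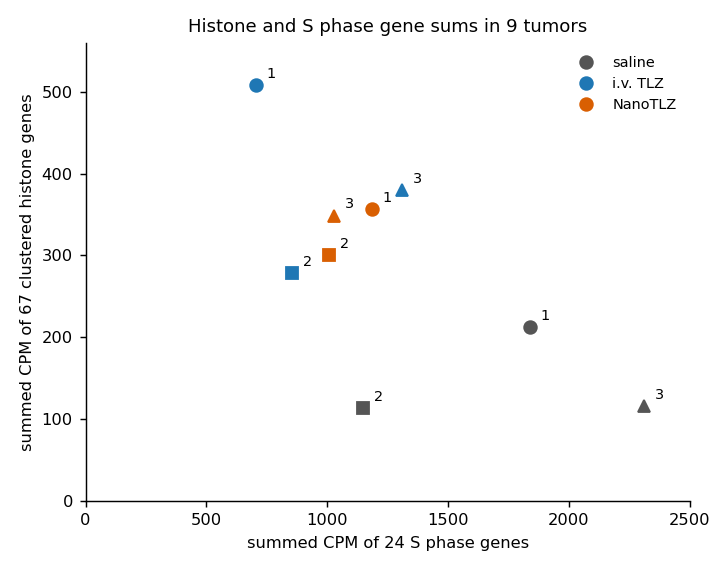
Summed CPM of 67 clustered histone genes against that of 24 S phase genes in the 9 tumors; colors are groups, and the number beside each point (and its shape) is the tumor. The 3 saline tumors lie lowest on the histone axis (113 to 212 CPM), and saline tumor 2, with 1150 on the S phase axis, lies within the treated range there.

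The genes that process and carry histones and their mRNAs were also mostly lower, by amounts that rested in part on saline tumor 1 or 3. Of 17 genes for histone gene transcription and mRNA maturation, 15 were lower for both treatments, with a median of -0.43 and 3 at an unadjusted p under 0.05 (8.29% of all genes lower). Slbp, the stem-loop binding protein, had 58.9 CPM in saline, 33.9 with i.v. TLZ and 40.5 with NanoTLZ (log2 fold change for both -0.67). Npat, the coactivator of clustered histone genes, had 34.4, 20.7 and 17.9 CPM (-0.83), Casp8ap2, a component of the same nuclear bodies, 41.2, 22.8 and 26.3 (-0.75), and Eri1, an exonuclease that trims the stem-loop end, 71.2, 43.0 and 48.5 (-0.64). Of 20 histone chaperones, 19 were lower, with a median of -0.53 and 6 at an unadjusted p under 0.05. They included Hjurp, the chaperone of the centromeric histone (-1.10), Chaf1b, a subunit of chromatin assembly factor 1 (-1.04), and Mms22l, which acts at damaged replication forks (-0.94). Of 11 histone genes outside the clusters, listed here as replication-independent, 10 were lower, with a median of -0.59. At an unadjusted p under 0.05, 2 were lower, Cenpa (-0.88) and H2afy2 (-4.11). H2afy2 was high in saline tumor 3 alone, and without it the log2 fold change for both was 0.028. H2afz, an H2A variant, had 515, 291 and 355 CPM in saline, i.v. TLZ and NanoTLZ (-0.68 for both), and its NanoTLZ value was 0.047 without saline tumor 3. edgeR called no gene of these lists at an adjusted p under 0.05. Without saline tumor 3 the log2 fold change for both was -0.36 for Slbp, -0.50 for Npat, -0.53 for Hjurp and -0.52 for Cenpa, and the median of the 11 histone genes outside the clusters was -0.052, with 6 lower. Without saline tumor 1 it was -0.25 for Eri1 and -0.48 for Casp8ap2, and without the tumor of highest Gm42418 in each group -0.69 for Chaf1b and -0.58 for Mms22l. At an unadjusted p under 0.05 the lower genes in the lists of maturation, chaperone and non-clustered histone genes numbered 2, 3 and 0 without saline tumor 3 (4.87% of all genes). They numbered 1, 3 and 3 without saline tumor 1 (8.51% of all genes), and 0, 0 and 1 without the tumors of highest Gm42418 (4.34%).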

How the data were processed

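Total RNA from flash-frozen tumors was sequenced at Novogene. The values the authors deposited are whole-number counts of reads for each gene, not normalised, in 1 column for each of 9 tumors. The submitters' processing notes name TopHat2, the mm10 build and DESeq2 without versions; the counting tool, its use of strand and the annotation were not given in the sources used here. The table had no other columns of values. Tumors were numbered 1 to 3 within a group in the order of the labels, and the numbers pair nothing. No batch was given. The study counts 3 mice in each group.

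Identifiers were matched to GENCODE M21 (34490 of 35275 found, 785 not). Counts were tested with edgeR 4.0.16 (R 4.3.3): filterByExpr (minimum count 10, total 15), TMM, and quasi-likelihood tests on all 9 tumors with 1 coefficient per group, with Benjamini-Hochberg adjustment over 15821 genes and a threshold of 0.05. Permuting 3 tumors against 3 cannot give an exact two-sided p below 0.1, so no such test was used. DESeq2 1.42.0 and limma 3.58.1 were alternatives. The biological coefficient of variation was 49.8%. The tests were tried on simulated data. No 2 columns were identical. Shared windows of 50 bases were counted over M21 transcripts with Python 3.11.15.

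The members, lists and tests were chosen with earlier results of these data known. A gene of the T and B cell marker list is not reported here and was left out of its sum. Named members were the 3 of highest CPM per class, any called, the 5 higher and up to 5 lower of smallest p for both treatments, the 3 of smallest p between treatments, and the short lists of polyadenylated and testis genes; of the other lists, the 3 of smallest p, with Slbp and Npat. Other members (Hist1h2ac, Hist1h2ad, Hist1h4d, Hist1h4j, Hist1h4m, Hist1h3c, Hist1h3f) were named after their values were seen. Fold changes are edgeR log2 values unless another tool is named. The p-values set a difference of group means against a spread estimated from these tumors, with information shared across genes.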

Additional observations from a re-analysis of the deposited data

How the results depend on the processing

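No paired analysis was possible because the labels give the groups no shared replicate numbers. The count of members called at an adjusted p under 0.05 was 0 in edgeR in each comparison. It was 6 (DESeq2, all tumors) and 4 (DESeq2, compared groups only) with i.v. TLZ, 4 and 4 with NanoTLZ, and for both treatments 9 in DESeq2 and 2 in edgeR with no filter on low counts (Hist1h2bc and Hist1h4h). Under limma-voom, other scalings, a robust dispersion, a stricter filter and each tumor left out, it was 0 throughout. The median log2 fold change of the tested members ran from 1.16 to 2.23 with i.v. TLZ, from 0.87 to 2.05 with NanoTLZ and from 1.05 to 2.25 for both when 1 tumor was left out, highest each time without saline tumor 1. Without the tumor of highest Gm42418 in each group, an alternative chosen after seeing the data as was that without the muscle genes, it was 2.12, 1.75 and 1.92. Under the library total, RLE and upper quartile scalings the mean summed CPM was 140 to 147 in saline, 387 to 392 in i.v. TLZ and 338 to 347 in NanoTLZ.

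Among named genes, 25 values changed sign, in Hist1h1e, Hist1h2bk, Hist1h3e, Hist2h2be, H2afy2 and H2afz, and none of them passed the threshold either way. Left-out tumors gave Hist1h2bk -0.16 to 0.63 with i.v. TLZ, -0.66 to 0.30 with NanoTLZ and -0.23 to 0.25 for both, Hist1h3e -0.42 to 1.72, -1.31 to 0.86 and -0.87 to 1.29, and Hist2h2be -0.26 to 0.65, -0.0075 to 0.50 and -0.044 to 0.54. With NanoTLZ, Hist1h1e ran from -0.014 to 2.16, H2afy2 from -4.58 to 0.12 and H2afz from -0.74 to 0.047, and for both H2afy2 ran from -4.67 to 0.028. limma-voom gave Hist1h2bk -0.10 with i.v. TLZ, and Hist1h3e 0.048 with NanoTLZ and 0.396 for both, and upper quartile scaling gave Hist1h2bk 0.034 for both. Without the tumors of highest Gm42418, Hist1h2bk was -0.084 with i.v. TLZ and Hist2h2be was -0.18 with NanoTLZ and -0.023 for both. The cause was not tested. The filter on low counts left 27 members untested at this depth.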
